A study of Mus musculus with 112 samples.

Results

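The cytosolic ribosomal protein genes were taken as all genes whose symbol begins with Rpl, Rplp or Rps and a digit, without pseudogene symbols (-ps) and without the S6 kinase genes (Rps6k). They were measured in hearts of mice under caloric restriction (CR) and in hearts of control mice, and 62 of the 19938 genes on the array fulfilled the rule with a probe set that carries a single symbol. Subunits were assigned by symbol, which gave 35 genes of the large subunit, the 3 genes of its stalk (Rplp0, Rplp1 and Rplp2) and 23 of the small subunit. The 23 include Rps23rg1, a retrogene copy of Rps23 that also entered by its symbol, and whether it encodes a subunit protein was not examined. Rps19bp1, which encodes a protein that binds RPS19, entered by its symbol alone and was kept apart from the subunits. A further 20 symbols of the rule occurred only on probe sets that name several genes, Rpl3 and Rpl13a among them, and these were not analysed here.

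Hearts were collected from male mice at 22 weeks of age after an overnight fast, from CR mice and control mice of each of 7 strains. Of the strains, 6 were inbred, namely DBA/2J, CBA/J, C3H/HeJ, C57BL/6J (in the labels C57BL6/J), BALB/cJ (in the labels Balbc/J) and 129S1/SvImJ. The strain B6C3F1/J is a hybrid bred from C57BL/6J and C3H/HeJ. Until the arms were separated at 8 weeks of age every mouse was given 84 kcal of purified food each week, and CR had then lasted 14 weeks. Food of the CR mice was lowered once more in 129S1/SvImJ and C57BL/6J, and BALB/cJ mice were given more food in both arms. Each array held RNA of 1 mouse (8 per group), and the values are log2 signals that the authors had normalized together. One of the 8 DBA/2J CR arrays (replicate 7) stood apart, with a mean over the 62 genes of 6.05 against 9.0 to 9.2 in the other DBA/2J CR hearts, and was left out, which gave 55 CR and 56 control arrays. The other arrays correlated with the mean of the rest of their group at 0.894 or more.

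Ribosomal proteins are assembled with ribosomal RNA in the nucleolus into the small subunit, which reads the mRNA, and the large subunit, which joins amino acids. Their mRNAs are short and abundant, and in mammals they start with a pyrimidine tract (the 5′ terminal oligopyrimidine, or TOP, motif) through which mTORC1 signalling sets their translation. CR is known to lower mTORC1 signalling and protein synthesis in many tissues, and most of this control acts on translation, which an array of mRNA levels does not measure. These genes also have many processed pseudogenes, so a probe set may collect signal from near-identical copies.

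The start regions of 6 of these genes are shown because they carry, or lack, the pyrimidine tract that defines TOP mRNAs. Each runs from 60 bases before to 30 bases after the annotated start (RefSeq, GRCm38.p6), 5′ to 3′ on the strand of the gene, and capitals mark a run of at least 8 pyrimidines that begins with C near the start, or the motif CCGGAAG. The positions are chr7:4792905-4792994 (plus strand) for Rpl28, chr4:86857338-86857427 (minus) for Rps6, chr11:114668520-114668609 (plus) for Rpl38, chr17:33955636-33955725 (minus) for Rps18, chr5:121204441-121204530 (plus) for Rpl6 and chr17:33824533-33824622 (minus) for Rps28.
Rpl28: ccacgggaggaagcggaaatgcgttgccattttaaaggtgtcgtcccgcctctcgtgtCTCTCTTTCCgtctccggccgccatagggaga
Rps6: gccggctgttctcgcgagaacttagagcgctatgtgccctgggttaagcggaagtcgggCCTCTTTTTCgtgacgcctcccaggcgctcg
Rpl38: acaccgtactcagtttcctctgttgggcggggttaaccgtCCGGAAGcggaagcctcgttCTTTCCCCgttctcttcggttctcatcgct
Rps18: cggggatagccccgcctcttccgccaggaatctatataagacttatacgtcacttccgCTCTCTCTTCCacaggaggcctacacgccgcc
Rpl6: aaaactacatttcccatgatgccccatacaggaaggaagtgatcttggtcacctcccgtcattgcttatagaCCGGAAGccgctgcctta
Rps28: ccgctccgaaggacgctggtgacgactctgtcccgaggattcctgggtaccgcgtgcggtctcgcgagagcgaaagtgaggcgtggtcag
In Rpl28, Rps6, Rpl38 and Rps18 the tract lies at the annotated start, and the windows of Rpl6 and Rps28 hold none.

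Promoter sequences were found for 50 of the 62 genes, and none was given for Rpl21, Rpl23a, Rpl29, Rpl30, Rpl36, Rpl7, Rpl8, Rplp1, Rps14, Rps20, Rps29 and Rps4l. A tract of at least 8 pyrimidines beginning with C, between 20 bases before and 30 bases after the start on the strand of the gene, was present in 23 of the 50 (46.0%), against 17.0% of 27025 mouse genes. The motif CCGGAAG, which is bound by ETS family factors, was present on either strand within the 300 bases of 18 of the 50 (36.0%), against 9.93% of all genes. AAGATGG, a core of the YY1 motif, was found in 5 of 50 genes (10% against 7.28%), and TATAAA in 6 (12% against 15.7%). The tract was present in 5 of the 13 genes higher in CR hearts that had a promoter and in 18 of the other 37. Annotated starts are not always the starts that a heart uses, and a match is a description of the letters only.

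Caloric restriction was accompanied by slightly higher mRNA signals of ribosomal protein genes when the 7 strains were averaged. Of the 62 genes, 16 were higher in CR hearts at an adjusted p under 0.05, against 7.69% of all 19938 genes that were higher, and 0 were lower, against 4.34% of all genes. At an unadjusted p under 0.05, 31 genes were higher (50%, against 13.9% of all genes) and 0 lower (against 11.1%) by limma. After adjustment the ordinary analysis of variance called 18 higher (29%, against 7.75% of all genes) and 0 lower (against 4.42%). The estimate was above 0 for 56 of the 62 genes (90.3%), compared with 48.4% of all genes, and the median difference between CR and control was 0.0798 on the log2 scale, against -0.00261 over all genes. The count depended on the scaling of the arrays. Median centring gave 19 genes higher (30.6%, against 8.21% of all genes), with all 16 among them. After a further quantile normalization 6 of the 62 genes were higher (9.68%, against 6.77% of all genes), namely Rpl4, Rpl6, Rpl7l1, Rpl8, Rpl14 and Rps28, and the other 10 of the 16 lost their call. By subunit, 10 of 35 genes of the large subunit, 1 of 3 stalk genes and 5 of 23 genes of the small subunit were called. The differences were small: the highest estimate, that of Rpl14, was 0.20 (1.15-fold).

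**Figure D1:**
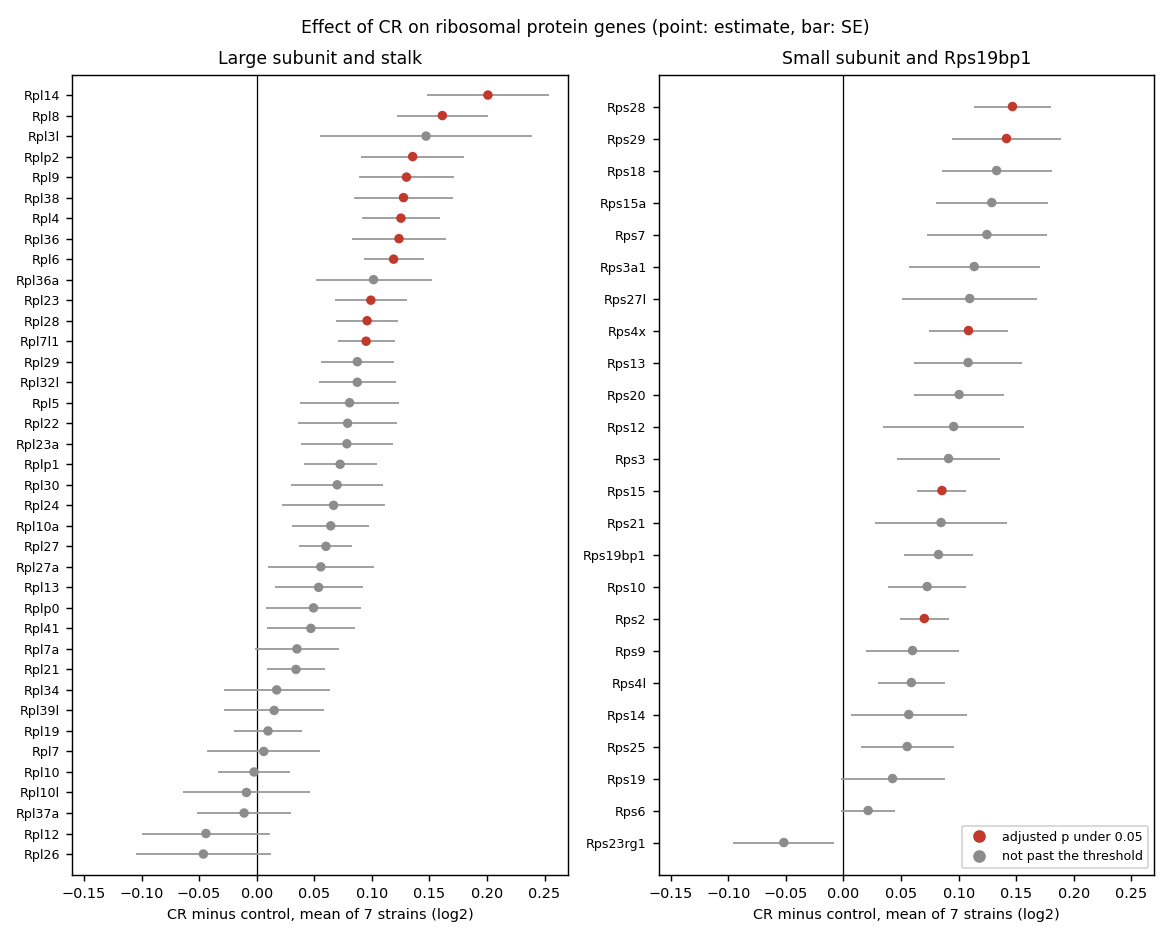
Difference between CR and control hearts on the log2 scale for each of the 62 genes, as the mean of the 7 strain differences (points) with its standard error (bars), with large subunit and stalk genes on the left and small subunit genes and Rps19bp1 on the right. The 16 genes past the threshold are red, all lie above 0, and the estimates of all genes run from -0.05 (Rps23rg1) to 0.20 (Rpl14).

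Rpl6, which encodes a protein of the large subunit, had the smallest p. Its strain means lay between 10.52 (C57BL/6J) and 10.87 (129S1/SvImJ) in CR hearts, and between 10.45 (C57BL/6J) and 10.67 (C3H/HeJ) in control hearts. Rpl6 was higher by 0.12 ± 0.026 (SE) in CR hearts, with an adjusted p of 0.00051 by limma, and in 7 of 7 strains. The ranges of the diets overlapped in every strain except 129S1/SvImJ. Rps28, a small subunit protein near the exit of the mRNA channel, averaged 8.94 in CR and 8.80 in control hearts (difference 0.15 ± 0.034, adjusted p 0.00090, limma), and it was higher in CR in 7 of 7 strains. Rpl8, which lies next to the peptidyl transferase centre, averaged 9.37 in CR and 9.21 in control hearts (0.16 ± 0.040, adjusted p 0.0022, limma), again with 7 of 7 strains. Rps15, a protein of the head of the small subunit, was higher by 0.09 ± 0.021 in 6 of 7 strains (adjusted p 0.0026, limma).

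Among the other large subunit genes, Rpl4, whose protein lines the peptide exit tunnel, was higher by 0.13 ± 0.034, and Rpl14 by 0.20 ± 0.053, both in 7 of 7 strains. Rpl9, Rpl23, Rpl28, Rpl36 and Rpl38 were higher by 0.10 to 0.13. Rpl38 is known in the mouse embryo for its part in the translation of Hox mRNAs, and its averages were 11.06 in CR and 10.93 in control hearts. Rpl7l1, a paralog of Rpl7 whose human protein belongs to precursors of the large subunit, was higher by 0.10 ± 0.025 in 7 of 7 strains. In the small subunit Rps2, which lines the entry of the mRNA channel, was higher by 0.07 ± 0.021 in 5 of 7 strains, Rps4x, encoded on the X chromosome, by 0.11 ± 0.034 in 6, and Rps29 by 0.14 ± 0.048 in 6. Adjusted p-values of these genes (limma) ran from 0.0042 for Rpl7l1 to 0.0353 for Rps29.

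The stalk proteins form the flexible arm that recruits elongation factors. Rplp2 averaged 6.04 in CR and 5.90 in control hearts (0.14 ± 0.045, adjusted p 0.0302, limma). Rplp1 was measured at 11.65 in CR and 11.58 in control hearts (adjusted p 0.128, limma), and Rplp0 at 11.40 in CR and 11.35 in control hearts (adjusted p 0.495, limma). Rps6, the substrate of the S6 kinases and a readout of mTORC1 signalling at the protein level, averaged 12.39 in CR hearts and 12.37 in control hearts (0.02 ± 0.023, adjusted p 0.617, limma). All genes without a call had estimates between -0.05 and 0.15. The lowest estimates were those of Rps23rg1, a retrogene copy of Rps23, Rpl26 and Rpl12, the base of the stalk, at -0.05, -0.05 and -0.04.

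Other features of the arrays moved together with these genes. The mean of 20 measured genes with very long mRNAs (such as Ttn, Dync1h1 and Syne1), which was chosen after the values were seen, was lower in CR hearts by 0.107 on average over the strains, and its difference was -0.501 in B6C3F1/J hearts, -0.170 for 129S1/SvImJ and -0.169 for BALB/cJ, but 0.0875 in CBA/J. Within groups, the array mean of the 62 genes and that of the long mRNAs correlated at r = -0.886 (Spearman -0.869, all arrays used, -0.882 without the 2 arrays farthest from the median, and -0.954 to -0.658 within single strains). Both means come from the same arrays, and no p is given. With the long mRNA mean as a covariate, 10 of the 16 genes kept their call, no other gene gained a call in this direction, Rpl26 was called lower, and the median difference was 0.0238. The 10 genes were 16.1% of the 62, against 11.1% of all genes that were higher in the same fit, whereas without the covariate the shares were 25.8% and 7.69%. The mean of 51 small nucleolar RNA genes, which are short, correlated with the 62 genes at r = 0.758, and with it as a covariate all 16 genes remained and 20 were called in all (32.3%, against 8.53% of all genes).

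Markers of other cell types also differed between the diets. Of 10 macrophage markers 4 were higher in CR hearts (40%, against 7.69% of all genes) and 0 lower (Cd68 0.28 ± 0.064, C1qa, C1qb and C1qc). Among 10 endothelial markers 4 were lower (40%, against 4.34% of all genes) and 0 higher (Cdh5 -0.26 ± 0.078, Pecam1, Tie1 and Cldn5). White fat markers had 2 of 9 lower (22.2%, Fabp4 and Lipe), but 3 had estimates above 0 (Car3 0.45, Retn 0.28 and Lep 0.019). Adipoq was at -0.10 (adjusted p 0.863, limma). Ventricular markers had 1 of 9 higher (11.1%, Actc1). Fibroblast markers had 1 of 8 lower (12.5%, Col3a1), and 3 had estimates above 0, with Lum at 0.22 among them. Markers of atrial muscle, lymphocytes, erythroid cells and neutrophils had no call. The macrophage mean ranged between 6.82 and 8.64 in CR hearts and between 6.63 and 8.08 in control hearts, and the endothelial mean between 7.16 and 8.76 in CR hearts and between 7.12 and 8.84 in control hearts. Within groups the mean of the 62 genes correlated with the macrophage mean at r = 0.644 and with the endothelial mean at r = -0.627 (all arrays used; Spearman 0.688 and -0.510; r = 0.677 and -0.553 without the 2 farthest arrays). In heart tissue a change in the share of a cell type and a change of RNA within cells cannot be told apart. The labels name the heart without saying which parts were taken, and the part of these cells in the result was not tested. When the marker means of atrial muscle and white fat entered the fit, all 16 genes kept their call and 21 were called (33.9%, against 9.27% of all genes). Without B6C3F1/J 5 genes remained (Rpl4, Rpl6, Rpl7l1, Rpl8 and Rps28), which is 8.06% of the 62 and near the 6.89% of all genes called higher in that fit. Without 129S1/SvImJ 7 genes remained (11.3%, against 4.34% of all genes).

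**Figure D2:**
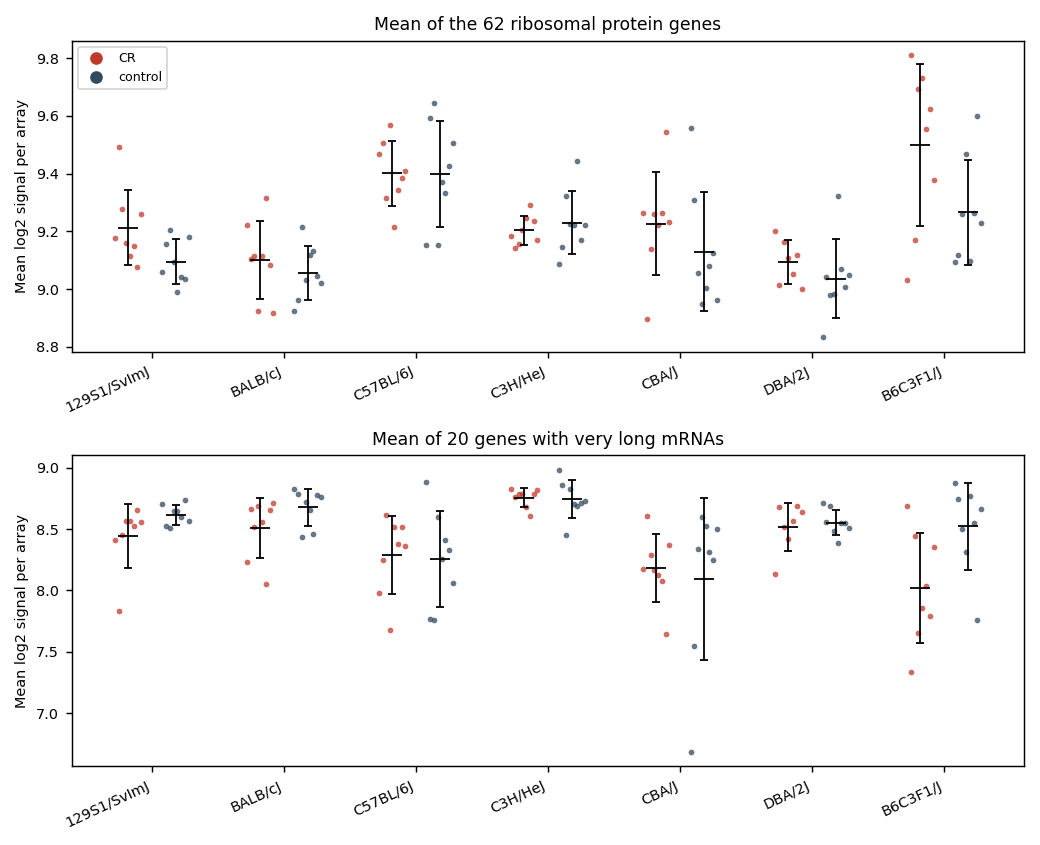
Mean log2 signal per array (1 point per mouse) of the 62 ribosomal protein genes (top) and of 20 genes with very long mRNAs (bottom) in each strain, with CR at the left and control at the right of each pair and the mean and SD in black. B6C3F1/J CR hearts spread from 9.03 to 9.81 in the upper panel, and their long mRNA mean of 8.02 lies below the 8.52 of B6C3F1/J control hearts.

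Within single strains the difference was most visible in B6C3F1/J and 129S1/SvImJ. The mean over the 62 genes was 9.50 ± 0.28 in CR and 9.27 ± 0.18 in control hearts of B6C3F1/J, and 9.21 ± 0.13 in CR and 9.10 ± 0.077 in control hearts of 129S1/SvImJ (SD, n = 8 each). In CBA/J it was 9.23 ± 0.18 in CR and 9.13 ± 0.21 in control hearts, in DBA/2J 9.09 ± 0.075 in CR (n = 7) and 9.04 ± 0.14 in control hearts, and in BALB/cJ 9.10 ± 0.13 in CR and 9.06 ± 0.094 in control hearts. The diets lay close together in C57BL/6J (9.40 ± 0.11 in CR, 9.40 ± 0.18 in control) and in C3H/HeJ (9.20 ± 0.051 in CR, 9.23 ± 0.11 in control). The median difference over the 62 genes was 0.223 for B6C3F1/J, 0.128 for 129S1/SvImJ, 0.102 for CBA/J, 0.0577 for DBA/2J, 0.0534 for BALB/cJ, 0.00309 for C57BL/6J and -0.0234 for C3H/HeJ, while the median over all genes lay between -0.00298 and 0.0116. Estimates above 0 were found for 59 of the 62 genes in B6C3F1/J, 57 in 129S1/SvImJ, 55 in CBA/J and 54 in DBA/2J. They were found for 41 in BALB/cJ, 32 in C57BL/6J and 21 in C3H/HeJ. Of all genes, 49.1% (129S1/SvImJ) to 52.5% (C3H/HeJ) had estimates above 0.

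Only 129S1/SvImJ gave calls for single genes, and 2 of the 62 passed, both higher in CR, against 6.83% of all genes. Rpl6 lay between 10.78 and 11.06 (median 10.83) in CR hearts of 129S1/SvImJ, and between 10.55 and 10.77 (median 10.63) in control hearts. Every CR value of Rpl6 was thus above every control value, which held for 1 of the 62 genes and for 0.928% of all genes in this strain (difference 0.22 ± 0.060, adjusted p 0.0295, limma). Rplp2 lay between 6.17 and 6.68 (median 6.33) in CR hearts and between 5.70 and 6.22 (median 6.05) in control hearts of this strain, with an overlap of the ranges (0.35 ± 0.085, adjusted p 0.0140, limma). In the other strains 0 of the 62 genes were called by limma, where the share of all genes called was 0.908% for B6C3F1/J, 0.251% for C57BL/6J, 0.0552% for C3H/HeJ, 0.015% for CBA/J, 0.01% for DBA/2J and 0% for BALB/cJ. At an unadjusted p under 0.05, 23 of the 62 genes were higher in CR in 129S1/SvImJ (37.1%, against 11.1% of all genes) and 0 lower, and in B6C3F1/J 18 were higher (29%, against 9.91%) and 2 lower (3.23%, against 11.5%). In the other strains the share higher was near or below that of all genes, with 3 genes in BALB/cJ (4.84%, against 4.35%), 3 in CBA/J (4.84%, against 3.34%), 2 in DBA/2J (3.23%, against 2.97%), 1 in C57BL/6J (1.61%, against 6.27%) and 1 in C3H/HeJ (1.61%, against 4.36%), where 1 gene was also lower. At its unadjusted threshold of 0.01 the methods' t-test gave 7 genes for 129S1/SvImJ (11.3%, against 5.71% of all genes in this direction), 5 for B6C3F1/J (8.06%, against 2.34%) and 1 for CBA/J (1.61%, against 1.09%), all higher in CR, and 0 in the other 4 strains.

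In B6C3F1/J the differences were larger than in 129S1/SvImJ, and so was the spread between mice. Rpl14 lay between 5.90 and 7.33 (median 6.4) in CR hearts and between 5.67 and 6.44 (median 5.87) in control hearts (0.56 ± 0.19, adjusted p 0.125, limma). Rpl8 lay between 9.17 and 10.07 (median 9.77) in CR hearts and between 9.05 and 9.78 (median 9.17) in control hearts (0.39 ± 0.15, adjusted p 0.162, limma). The ranges of both genes overlapped between the diets. When all 14 groups shared one estimate of the spread, 18 of the 62 genes were called higher in B6C3F1/J (29%, against 6.3% of all genes) and 1 lower (1.61%, against 7.89%). That fit called 1 gene higher in C57BL/6J (1.61%, against 2.77%) and 0 in 129S1/SvImJ, where 1.41% of all genes were higher. In CBA/J the highest estimate was that of Rps28, which lay between 8.29 and 9.31 (median 8.83) in CR hearts and between 8.33 and 8.86 (median 8.49) in control hearts (0.34 ± 0.12, adjusted p 0.674, limma).

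**Figure D3:**
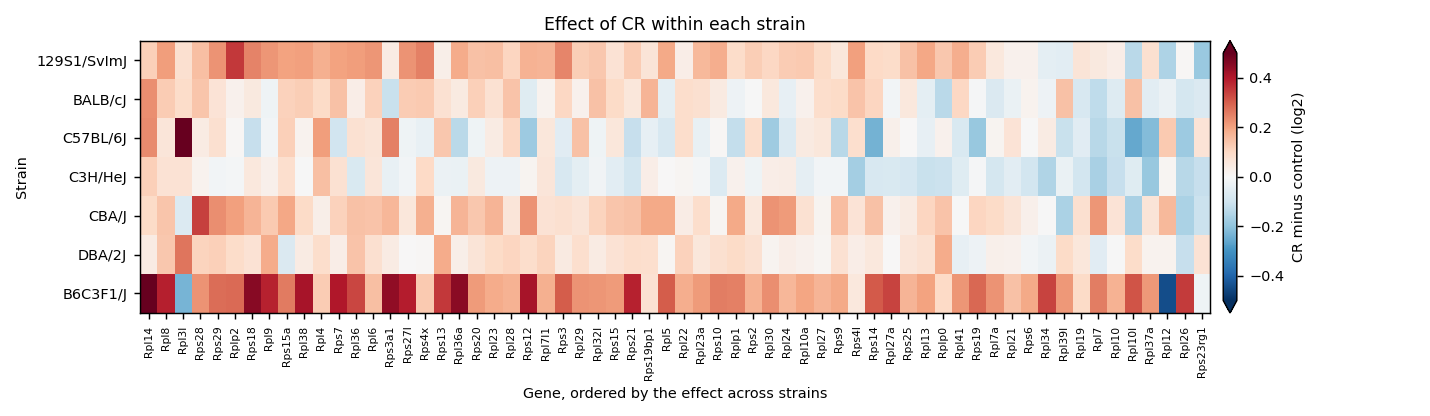
Difference between CR and control hearts (log2, colour) in each of the 7 strains (rows) for the 62 genes (columns, ordered by the effect across strains), with red for higher and blue for lower in CR. The row of B6C3F1/J is red for 59 genes and that of C3H/HeJ for 21, and the highest value, Rpl3l in C57BL/6J (0.82), lies beyond the end of the colour scale.

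The differences between strains in the response did not pass the test for any of these genes. In the strain by diet interaction 0 of the 62 genes were called by limma, against 0.712% of all genes. The ordinary analysis of variance called 0 as well, against 0.667% of all genes. An unadjusted p under 0.05 was reached by 2 genes, compared with 14.7% of all genes. These were Rps4l, a paralog of Rps4x, with differences from -0.17 in C3H/HeJ to 0.20 in 129S1/SvImJ (adjusted p 0.30, limma), and Rplp1, with differences from -0.12 in C57BL/6J to 0.25 in B6C3F1/J (adjusted p 0.312, limma). Rps15, Rps18, Rpl37a and Rpl36a followed with adjusted p-values from 0.360 to 0.367. With array weights, which gave the CBA/J control array of replicate 1 a weight of 0.0499, 29 of the 62 genes were called, and 26.1% of all genes.

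The strains themselves differed in the level of most of these genes. In control hearts 51 of the 62 genes differed among the strains (82.3%), against 56.5% of all genes, and in CR hearts 57 did (91.9%), against 60.7% of all genes. Both comparisons called 50 genes. The strain means of a gene spanned 0.546 in control hearts at the median over the 62 genes, compared with 0.390 over all genes. CR hearts and control hearts are separate animals, and the 7 strain means of a gene correlated between the diets with a median r of 0.844 (lowest -0.251). C57BL/6J had the highest mean for 20 genes in CR hearts and 37 in control hearts, B6C3F1/J for 32 in CR hearts and 6 in control hearts, and DBA/2J had the lowest mean for 20 genes in CR and 22 in control hearts. The long mRNA mean and the small nucleolar RNA mean also differed among these groups. The long mRNA mean was 8.29 in C57BL/6J CR hearts and 8.26 in C57BL/6J control hearts, and 8.02 in B6C3F1/J CR hearts, the lowest of the CR groups, against 8.52 in B6C3F1/J control hearts. The lowest control mean was that of CBA/J (8.10), and the control groups other than CBA/J and C57BL/6J lay between 8.52 and 8.74. The small nucleolar RNA mean was highest in B6C3F1/J among CR groups (6.86) and in C57BL/6J among control groups (6.88). With the long mRNA mean as a covariate 57 genes differed among the strains in CR hearts (91.9%, against 54.4% of all genes) and 56 in control hearts (90.3%, against 55.4%), and with the small nucleolar RNA mean 49 in CR hearts (79%, against 47.8%) and 55 in control hearts (88.7%, against 45.8%). Whether these means set the order of the strains was not tested.

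Rps2 separated DBA/2J from every other strain. Its signal in DBA/2J lay between 10.71 and 11.02 (median 10.86) in CR hearts and between 10.67 and 11.09 (median 10.76) in control hearts. In the other 6 strains the strain medians were 11.54 to 11.94 in CR hearts and 11.42 to 11.75 in control hearts, and the lowest single values were 11.32 in CR and 11.30 in control hearts, both in 129S1/SvImJ. DBA/2J thus did not overlap with any other strain (adjusted p over the strains 3.8e-19 in CR and 1.6e-21 in control hearts, limma). The other 2 probe sets of Rps2 were also lowest in DBA/2J, with means of 10.55 and 8.82 in CR hearts and 10.44 and 8.65 in control hearts. Probe sets of a gene can repeat the same signal, so these are no independent evidence. Whether the RNA level or the probes set DBA/2J apart was not tested.

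Rplp0, the anchor of the stalk, had lower medians in 129S1/SvImJ, DBA/2J and BALB/cJ than in the other 4 strains. Its medians in CR hearts were 11.84 in C57BL/6J, 11.77 in B6C3F1/J, 11.71 in CBA/J and 11.56 in C3H/HeJ, and 11.19 in 129S1/SvImJ, 11.09 in DBA/2J and 10.81 in BALB/cJ. In control hearts they were 11.82 in C57BL/6J, 11.65 in C3H/HeJ, 11.64 in B6C3F1/J and 11.50 in CBA/J, and 11.05 in 129S1/SvImJ, 10.95 in DBA/2J and 10.86 in BALB/cJ. Single hearts of the lower strains reached the range of the higher ones, among them 129S1/SvImJ CR hearts up to 11.53 and a DBA/2J control heart at 11.58, while C57BL/6J hearts, at 11.65 or more in CR and 11.64 or more in control, lay above all hearts of the 3 lower strains (adjusted p 1.7e-13 in CR and 3.1e-12 in control hearts, limma). Rpl34, a large subunit gene, was lowest in 129S1/SvImJ, between 7.54 and 8.36 in CR and between 7.72 and 8.42 in control hearts, while C57BL/6J lay between 8.90 and 9.34 in CR and between 8.76 and 9.32 in control hearts without overlap with 129S1/SvImJ.

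Rpl24, Rpl13, Rps19, Rps4l, Rps18 and Rpl7 were all highest in C57BL/6J control hearts, with adjusted p-values from 6.1e-12 (Rpl24) to 1.0e-08 (Rpl7) by limma, and control strain means that spanned 0.68 (Rps4l) to 1.03 (Rpl7). RPS19 is the protein most often altered in human Diamond-Blackfan anaemia. The mean of the 7 atrial markers was 7.79 in C57BL/6J CR hearts and 9.94 in C57BL/6J control hearts, while the other control groups lay between 6.62 and 8.08. With the means of atrial and fat markers in the fit 48 of the 62 genes still differed among control strains (77.4%, against 51.4% of all genes). Rpl6, Rps15, Rpl14 and Rps6 were among the genes without a call among control strains.

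**Figure D4:**
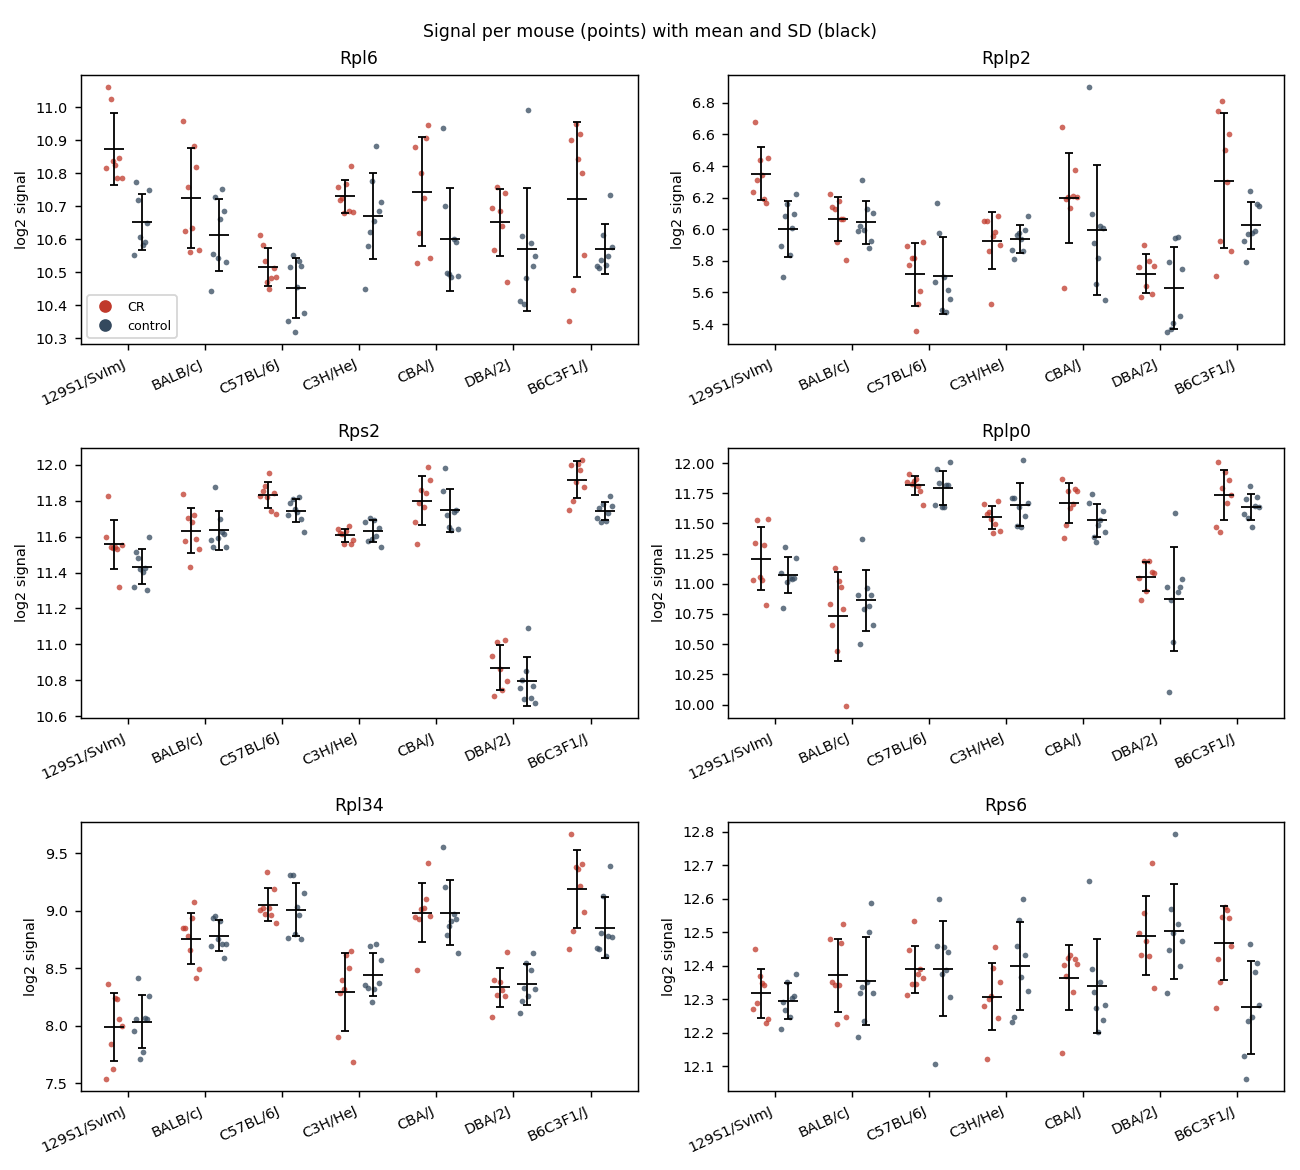
Log2 signal of Rpl6, Rplp2, Rps2, Rplp0, Rpl34 and Rps6 in every heart (points), by strain, with CR at the left and control at the right of each pair and the mean and SD in black. Rps2 lies at 10.67 to 11.09 in DBA/2J and at 11.30 or more in the other strains, and Rpl6 in 129S1/SvImJ is the pair whose diets do not overlap.

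From mouse to mouse within a group most of these genes moved together. After removing group means, a gene correlated with the mean of the others at a median r of 0.777 over all arrays used, and 53 of the 62 were over 0.5, compared with 6.71% of all other genes measured against the mean of the 62. The closest followers were Rpl27a (0.950), Rps3 (0.942) and Rps18 (0.933). Those that followed least were Rpl3l (-0.0739), Rps23rg1 (-0.0206) and Rps19bp1 (0.0673), next to Rpl12 (0.0739). Outside the list the highest correlations were those of Nsa2 (0.914), which acts in the assembly of the large subunit, the elongation factor Eef1b2 (0.907) and Pfdn5 (0.902), and Rpsa (0.871) and Fau (0.866) are ribosomal proteins with other names. The lowest were those of Acacb (-0.890), Wdfy3 (-0.881) and Hspg2 (-0.880). Dync1h1, of the very long mRNAs, was at -0.879, and the mean of those mRNAs at -0.886. Mtor was at -0.871, less far from 0 than Dst (-0.879), Tns1 (-0.877) and Ankrd52 (-0.872). What the value of Mtor stands for was not tested. The points share the array and its normalization, and the correlations are descriptions.

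Rpl3l, the paralog of Rpl3 that is restricted to heart and skeletal muscle, did not follow the other genes. Averages were 9.12 in CR and 8.97 in control hearts (0.15 ± 0.092, adjusted p 0.326, limma). In C57BL/6J it lay between 7.09 and 9.25 (median 9.02) in CR hearts and between 5.58 and 8.89 (median 8.37) in control hearts (0.82 ± 0.40, adjusted p 0.405, limma), and in B6C3F1/J between 8.73 and 9.29 (median 9.07) in CR and between 8.91 and 9.42 (median 9.33) in control hearts (-0.23 ± 0.095, adjusted p 0.177, limma). The atrial marker means fell apart into 75 arrays between 6.32 and 7.53 and 36 arrays between 8.40 and 11.3. Rpl3l ran from 8.89 to 9.73 (median 9.34) in the 75 arrays and from 5.58 to 9.32 (median 8.68) in the 36. Of the C57BL/6J hearts 3 CR and 7 control arrays were among the 36, and of the B6C3F1/J hearts 5 CR and 2 control arrays. Over the 75 arrays, which hold the strains in unequal numbers, the medians of Rpl3l were 9.34 in 37 CR hearts and 9.32 in 38 control hearts. Within these arrays B6C3F1/J had medians of 9.23 in 3 CR hearts and 9.36 in 6 control hearts, and C57BL/6J 9.12 in 5 CR hearts and 8.89 in the 1 control heart. The part of atrial tissue in the diet differences of Rpl3l was not tested beyond these values.

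**Figure D5:**
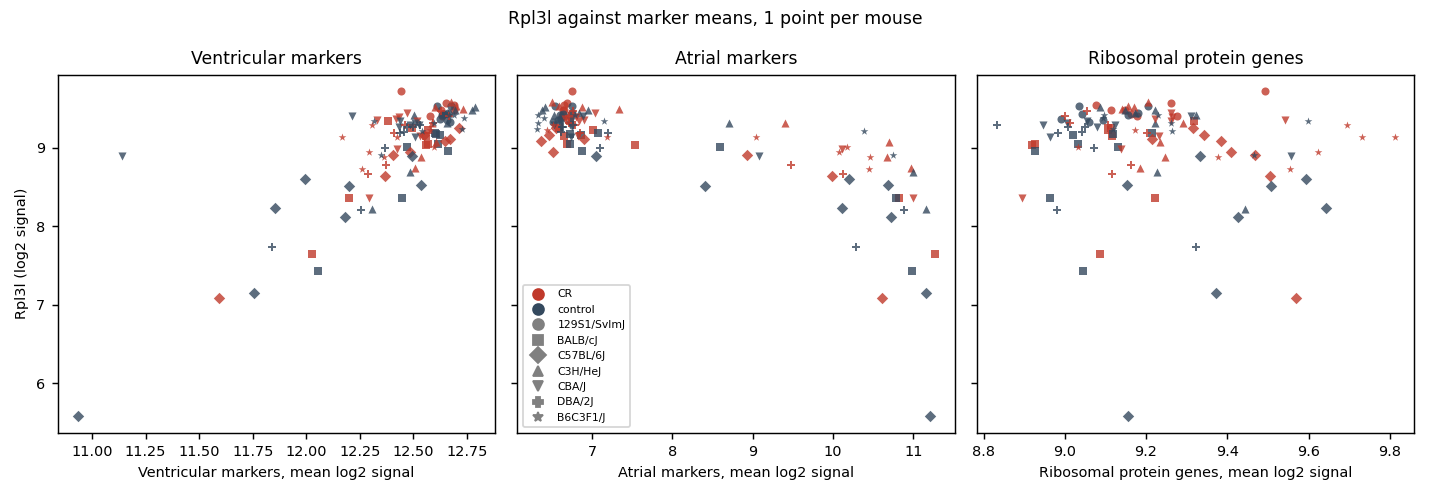
Log2 signal of Rpl3l (vertical axis) against the mean log2 signal per array of 9 ventricular markers, 7 atrial markers and the 62 ribosomal protein genes (horizontal axes), with 1 point per mouse, colour for diet and symbol for strain. Values of Rpl3l under 8.89 occur only among the 36 arrays with an atrial mean over 8, and the right panel shows no common course (r = -0.0739 with the mean of the other genes within groups).

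The other paralogs were measured with the following results. Rps27l, a paralog of Rps27 known as a target of p53, averaged 9.57 in CR and 9.46 in control hearts (adjusted p 0.234, limma). Rpl10l and Rpl39l, which are known from testis, had signals of 4.94 in CR and 4.95 in control hearts, and of 3.04 in CR and 3.03 in control hearts. Signals depend on the probes, so they do not rank genes by abundance. Rpl22, Rpl36a and Rpl10 averaged 7.61, 10.82 and 11.89 in CR hearts and 7.53, 10.72 and 11.89 in control hearts, none of them with a call. Rps19bp1 was measured at 6.83 in CR and 6.75 in control hearts (0.08 ± 0.030, adjusted p 0.0536, limma).

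Lists of genes that make ribosomes or work with them held calls in both directions, beside 7.69% of all genes higher and 4.34% lower. Of 69 genes of ribosome biogenesis 7 were higher (10.1%) and 6 lower (8.7%) in CR, with a median difference of -0.0214. Among them Tsr2, known in yeast as a chaperone of Rps26, was higher by 0.14 ± 0.027 and Dkc1, the pseudouridine synthase dyskerin, by 0.17 ± 0.038, while Ddx21 and Heatr1, which act in ribosomal RNA transcription and processing, fell by 0.17 and 0.13. Of 17 genes of RNA polymerase I and its factors 2 were higher (11.8%, Polr1c and Polr1e) and 0 lower. Of 9 elongation factor genes 2 were higher (22.2%, Eef1e1 and Eif5a2) and 0 lower, and neither of these is the core factor that brings aminoacyl-tRNA to the ribosome. Of 34 initiation factor genes 2 were higher (5.88%) and 6 lower (17.6%). Whether a list differed from all genes was not tested. Eif4e, the cap-binding protein, averaged 8.60 in CR and 8.39 in control hearts, and Eif4b, which stimulates the helicase Eif4a, 9.05 in CR and 9.28 in control hearts (-0.22 ± 0.028, adjusted p 1.3e-09, limma).

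Of 35 genes of mTORC1 and S6 kinase signalling 6 were higher (17.1%) and 1 lower (2.86%) in CR. Sesn1, of the sestrin family of mTORC1 inhibitors, averaged 10.38 in CR and 10.05 in control hearts (0.34 ± 0.050, adjusted p 1.9e-07, limma). Tbc1d7, the third subunit of the inhibitory TSC complex, was higher by 0.23 ± 0.058, whereas Lamtor1, Lamtor3, Rragd and Mlst8 belong to the machinery that activates mTORC1 at the lysosome or to the complex itself. Their adjusted p-values (limma) ran from 0.0035 for Tbc1d7 to 0.0477 for Mlst8. The gene called lower was Ddit4l (-0.12 ± 0.041).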

How the data were processed

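Hearts of 7 mouse strains under CR or control feeding were profiled on Affymetrix Mouse Gene 1.0 ST arrays, with 5 µg of total RNA per mouse. For each probe set a log2 signal was deposited, which the authors had computed with Affymetrix Expression Console (RMA-Sketch, that is background correction, quantile normalization and median polish). Its version is not given in the sources used. Signals are relative to the other arrays, a shift of most genes would be partly removed, and precision depends on how many arrays a group holds. Each replicate was another mouse, and the p-values refer to the variation among these mice.

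Of 35556 probe sets, 21789 carried 1 symbol in the platform annotation, 1621 several and 12146 none. The brightest probe set stood for a gene (19938 genes, 214 probe sets for the 62 genes). Genes were fitted with limma 3.58.1 in R 4.3.3 with 1 mean per group. The across-strain effect is the mean of the 7 strain differences, the interaction a moderated F test, strain differences a moderated F test within a diet, and within-strain effects used the arrays of that strain. Tests were 2-sided, and p-values were adjusted after Benjamini and Hochberg over all genes with a threshold of 0.05. The fit was tested on simulated data. Figures and promoter searches used matplotlib 3.10.9, pandas 2.3.3 and numpy 2.4.6 under Python 3.11.15.

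Genes named are up to 12 rises and falls with the smallest p across strains, those called within a strain, the 6 smallest p-values of the interaction, the 8 smallest among control strains, paralogs, stalk genes, Rps6, and the 3 that follow the others most and least, and of other lists up to 4; further genes were named after their values were seen. The genes and lists were chosen with earlier results of these data known. Alternatives concerned normalization, centring, dim genes, probe sets, variance model, array weights and the replicate block. Others concerned tissue marker, long mRNA and small nucleolar RNA covariates, and left-out arrays or strains.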

Additional observations from a re-analysis of the deposited data

Results flagged for a closer look

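Single hearts that lay far from the rest of their group were looked for in 182 group values (the mean of the 62 genes and 12 named genes in 14 groups), and 18 were found, where chance gives about 1 in 20. The figure after each gene is the gap to the nearest heart as a share of the range of the group. None concerned the mean of the 62 genes.

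The DBA/2J control heart of replicate 5 was the highest of its group for Rpl6 (0.652), Rpl8 (0.763), Rps15 (0.565) and Rps2 (0.582). The CBA/J control heart of replicate 1 was the highest for Rps15 (0.702), Rpl14 (0.593), Rplp2 (0.6) and Rps6 (0.584), and the C3H/HeJ control heart of replicate 6 for Rps15 (0.581) and Rplp0 (0.557). All 3 are control hearts.

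Rpl3l was lowest by a wide gap in the C57BL/6J CR heart of replicate 4 (0.717), the CBA/J CR heart of replicate 2 (0.575) and the B6C3F1/J control heart of replicate 4 (0.604). In CR hearts Rpl8 was lowest in BALB/cJ replicate 4 (0.556), Rplp2 in C3H/HeJ replicate 4 (0.605) and Rps6 in CBA/J replicate 1 (0.628). In control hearts Rpl6 was highest in B6C3F1/J replicate 7 (0.553) and Rps2 in BALB/cJ replicate 3 (0.537).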

How the results depend on the processing

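Of the 62 genes, 16 were higher in CR across strains (7.69% of all genes higher). The number was 2 with all 112 arrays (2.74% of all genes) and 6 after a further quantile normalization (6.77%). It was 19 after median centring (8.21%) and 40 with array weights (12.2%). It was 7 without 129S1/SvImJ (4.34%), 5 without B6C3F1/J (6.89%) and 21 without the 6 arrays that stood apart (8.94%). With the long mRNA covariate it was 10 (11.1%), and 10 with this covariate and without B6C3F1/J (10.7%). Genes lower in CR numbered 0 under the alternatives run, apart from 1 (Rpl26) with the long mRNA covariate, with and without B6C3F1/J. Leaving out 1 heart at a time gave 14 to 24 genes higher, 0 lower and a median difference of 0.0711 to 0.0888. Over all genes the calls in both directions also moved in these fits, from 2237 to 3030. The share of all genes called higher was not computed for each of them. The interaction called 1 gene without the 6 arrays that stood apart (9.18% of all genes) and 29 with array weights (26.1% of all genes). It also called 1 gene without B6C3F1/J and with the long mRNA covariate (0.843% of all genes). It called 0 when any 1 of these 6 arrays was left out, and it was not refitted without each of the other hearts. Within 129S1/SvImJ the 2 calls became 7 without dim genes, 9 with a trended and robust variance, 6 with the replicate block and 0 with all groups in 1 fit. Array weights called 1 gene in C57BL/6J, 3 in CBA/J and 24 in B6C3F1/J, and the fit of all groups 1 in C57BL/6J and 19 in B6C3F1/J. Apart from the fit of all groups, the share of all genes called was not computed for these alternatives within strains. Their counts therefore do not show whether the 62 genes were called more often than other genes. With the array of DBA/2J CR replicate 7 included, estimates turned negative for Rpl28 (-0.00563), Rps15 (-0.0324), Rps2 (-0.00782), Rps6 (-0.0856), Rplp0 (-0.0187) and Rplp1 (-0.00922), and that of Rps6 also without B6C3F1/J (-0.00685), with the long mRNA covariate (-0.00025) and with both (-0.0152). The cause was not tested. Counts of strain differences stayed within 1.5 times under every alternative run (49 to 59 in CR hearts, 48 to 56 in control hearts).

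Replicate numbers are shared by the diets in the labels, and 28 of 55 same-numbered pairs correlated over 0.1 (-0.441 to 0.674, median 0.109). Such correlations cannot show whether a number stands for a shared batch, and the labels do not say so. The main fits treated the mice as unpaired. With the replicate block the across-strain count was 17, for which the share of all genes called higher was not computed. Apart from 129S1/SvImJ the block changed no count by over 1.5 times. The long mRNA and small nucleolar RNA covariates, the atrial and adipocyte covariates for control strain differences and the alternatives for strain differences in CR hearts were chosen after seeing the data.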

Other observations

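The 62 genes had 152 further probe sets besides the brightest ones, and 149 of them had an estimate above 0 across strains, with a median of 0.0843. Their correlation with the brightest probe set of the same gene was 0.962 at the median within groups, so they repeat the same signal and are no independent evidence. The array of DBA/2J CR replicate 7, which was left out, correlated with the mean of the other DBA/2J CR hearts at 0.262 over all genes.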
